A study of Mus musculus with 4 samples.

Results

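The comparison of high-fat with control diet in mice that lack Myd88 in the liver rests on 2 of the 4 arrays of the series, 1 array of knockout liver for each diet. Each gene was given by 1 quantity, its log2 value on the high-fat array minus that on the control array, so that a log2 difference of 1 is 2-fold. The files named 22180 genes by probe sets with 1 symbol, and where a gene had several, the probe set brightest on average across the 4 arrays stood for it. Of these, 13308 genes had a mean at or above the 40th percentile (a log2 value of 3.47) and were kept. The knockout mice had the genotype ALB Cre MyD88 lox/lox, and the wild-type mice, whose diet difference is set beside that of the knockout, had MyD88 lox/lox without the Cre. Both genotypes therefore carried the loxed alleles, were of strain C57Bl6 and 16 weeks old, and gave RNA of total liver. The control diet held 9.4% fat and the high-fat diet 60% fat, and the time on diet and the sex of the mice were not given in the sources used here. RNA of 4 to 5 mice was pooled for each group, from animals chosen by RNA quality, and 100 ng went into labelling. A pool on 1 array leaves no replicate, so no test was made, no difference has an error, and the number of arrays limits the precision.

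Myd88 encodes the adaptor through which most Toll-like receptors and the interleukin-1 receptor family reach NF-kappaB and the MAP kinases. The albumin promoter drives the Cre in hepatocytes, so Kupffer cells, endothelial cells and other liver cells keep the gene. Hepatocytes answer a fat-rich diet by lowering the synthesis of fatty acids from carbohydrate, and their genes for lipid handling are set by the receptors PPARalpha, LXR, FXR, CAR and PXR, by SREBP factors and by the circadian clock. They also make the acute phase proteins of plasma, which are known to follow interleukin-1 and interleukin-6.

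The log2 value of Myd88, the gene deleted (probe set 17532137), was 5.91 on the control array and 6.23 on the high-fat array of knockout, and 6.10 and 6.44 on those of wild type. The knockout arrays were the lower ones on each diet. The place of its probes within the gene, inside or outside the deleted exons, was not analysed here, so the deletion cannot be checked by them. The array medians over all probe sets lay between 3.53 and 3.56, and the 2 knockout arrays correlated with a Pearson r of 0.987 across probe sets. Hepatocyte markers, among them Alb, Ttr and Apoa1, were found on every array: the median log2 level of the 13 members kept was 11.80 on the control and 11.86 on the high-fat array of knockout, and their differences lay between -0.36 and 0.25. Transcripts of the exocrine pancreas, which liver cells are not known to make, were present on all 4 arrays at unequal levels, with a median log2 level of 6.75 and 7.51 on the control and high-fat arrays of knockout and of 4.05 and 5.79 in wild type. Each of the Y-linked transcripts Kdm5d, Eif2s3y and Uty was above the 40th percentile on all 4 arrays, with the lowest value being the 4.82 of Kdm5d in wild type on control diet. All 3 had their highest value on the knockout high-fat array, with diet differences of 0.32, 0.56 and 0.60 in knockout and 0.43, -0.13 and 0.25 in wild type, and their part in the differences of sex-biased genes was not tested. The X-linked transcript Xist had a mean over the 4 arrays below the 40th percentile and was not kept. In pooled RNA of total liver, fewer cells of a type and less RNA per cell cannot be told apart.

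In knockout liver, high-fat diet went with values at least 2-fold higher for 43 genes, which is 0.323% of the genes kept, and at least 2-fold lower for 38, which is 0.286%. Of all genes kept, 52.2% were higher and 47.7% lower, and in wild type 44.9% and 55%. At 1.5-fold the counts were 304 higher (2.28%) and 229 lower (1.72%). The median difference over all genes was 0.01 and the central 95% of genes lay between -0.52 and 0.57. The 2 groups differed in kind. Of the 43 higher genes, 11 were markers of pancreas, muscle or gut mucosa, 8 were predicted genes and 0 were small RNAs. Of the 38 lower genes, 21 were small RNAs, 3 were such markers and 1 was a predicted gene. Among all 13308 genes kept, 231 were small RNAs and 864 predicted genes, and 13263 were left without the markers. Without the markers 32 higher and 35 lower genes were left, and without small RNAs 43 higher and 17 lower.

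A diet difference of 2 arrays can come from either of them, and the wild-type arrays show on which side a gene stood apart. On the high-fat side, the knockout array was above both wild-type arrays for 36 of the 43 higher genes and below both for 28 of the 38 lower genes. The choice of these genes by the same array favours this, and over all 13308 genes the knockout high-fat array was the highest of the 4 for 4151 and the lowest for 3543. On the control side, the knockout array was below both wild-type arrays for 18 of the higher and above both for 15 of the lower genes. Over all genes it was the lowest of the 4 for 2967 and the highest for 2670. On either side the count over all genes also asks for the order of the 2 knockout arrays. The choice of genes fixed that order for the 43 and the 38, so the shares are not like for like. The diet difference in wild type, which shares no array with that in knockout, had the same sign for 36 of the 43 and 31 of the 38, and for 7330 of all 13308 genes. It reached 2-fold the same way for 21 and 10 of them, and 2-fold the opposite way for 1 and 3, which were Cyp2b9 among the higher and Moxd1, Saa2 and Orm2 among the lower genes. In wild type 65 genes (0.488%) reached 2-fold upward and 75 (0.564%) downward. Whether the genotypes differ in any of these genes was not tested, since each group has 1 array.

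**Figure D1:**
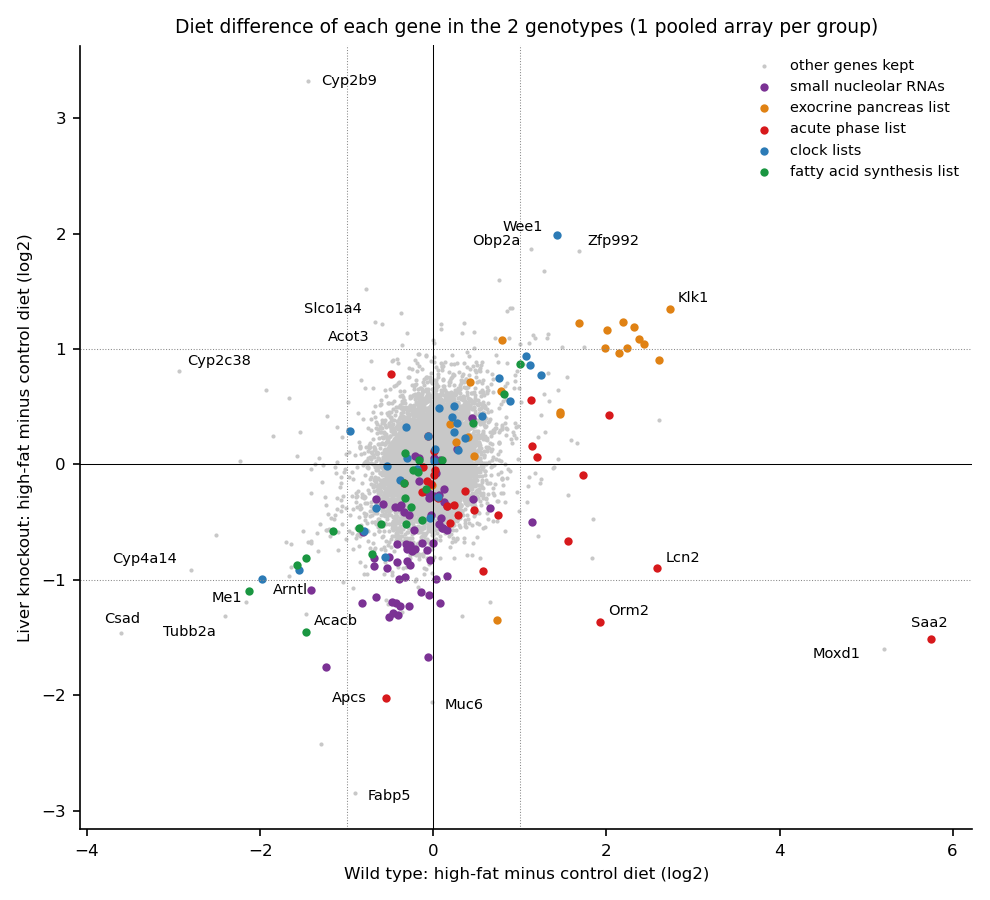
Each point is 1 of the 13308 genes kept, placed by its log2 difference, high-fat minus control diet, in wild type (horizontal axis) and in liver knockout (vertical axis); dotted lines mark 2-fold, and colours mark 5 gene groups. Most genes lie near the centre. Most pancreas genes lie at the upper right, and Saa2, Moxd1, Orm2 and Lcn2 lie at the lower right. Small nucleolar RNAs (Snord, Snora and Scarna names) lie low in knockout (median -0.68) and less so in wild type (median -0.21).

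Genes of the circadian clock were among those that differed with diet in knockout, some lower and some higher. The clock is a loop in which ARNTL (BMAL1) and CLOCK switch on genes through E-box elements, PER, CRY and CIART hold them back, and NR1D1 represses Arntl through ROR elements, while DBP, TEF and HLF act on D-box elements of output genes. Arntl had a log2 value of 5.62 on control and 4.62 on high-fat diet in knockout, a difference of -0.997 that falls just short of 2-fold, and of 5.92 and 3.95 in wild type, a difference of -1.97. Both high-fat arrays lay below both control arrays. Ciart, a repressor of ARNTL and CLOCK, had 5.00 and 5.94 in knockout and 4.76 and 5.83 in wild type, and Per3 had 5.65 and 6.42 against 5.20 and 6.44. For these genes both high-fat arrays were the higher ones, by 0.94 and 0.77 in knockout and by 1.08 and 1.24 in wild type. Nr1d1, the repressor of Arntl, went the way of its target, with 8.38 and 7.59 in knockout (-0.80) and 8.49 and 7.93 in wild type (-0.56). Nfil3, a repressor at D-box elements, was lower by -0.57 in knockout and -0.80 in wild type. Of the 15 clock activators and repressors kept, 8 were higher and 7 lower in knockout with a median of 0.03, against 0.01 over all genes, and 13 of 15 had the same sign in both genotypes.

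Among clock output genes, Wee1, which encodes a kinase that holds cells before mitosis, was the named gene with the second highest diet difference in knockout. Its log2 value was 4.79 on control and 6.78 on high-fat diet in knockout, a difference of 1.99, and 4.77 and 6.21 in wild type, a difference of 1.43. The control arrays were alike and both high-fat arrays were higher. Upp2, a uridine phosphorylase gene, was higher by 0.86 in knockout and 1.11 in wild type, the deubiquitinase gene Usp2 by 0.75 and 0.76, Dbp by 0.55 and 0.88, and Tef by 0.42 and 0.57. Cdkn1a, which encodes the cell cycle inhibitor p21, was lower in both, from 5.51 to 4.59 in knockout and from 5.95 to 4.39 in wild type. Over the 15 output genes kept, 12 were higher and 3 lower in knockout with a median of 0.36, and 9 were higher in wild type with a median of 0.25; 52.2% of all genes were higher in knockout. The hour at which tissue was taken was not given in the sources used here.

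Promoters are shown for some of the clock genes that differed, picked because they had a match to an element known to drive clock genes. The sequences are RefSeq's, of build GRCm38.p6, and are the 250 bases before the gene start, read 5′ to 3′ on the gene's strand. Tef and Arntl had 2 starts each, and the start used was the first with a match. Capitals mark the match to the motif named: the E-box CACGTG in Ciart and Tef, the E-prime box CACGTT in Nr1d1, where it reads AACGTG on this strand, and the D-box TTATGTAA in Per3.
Ciart (chr3:95882229-95882478, minus strand): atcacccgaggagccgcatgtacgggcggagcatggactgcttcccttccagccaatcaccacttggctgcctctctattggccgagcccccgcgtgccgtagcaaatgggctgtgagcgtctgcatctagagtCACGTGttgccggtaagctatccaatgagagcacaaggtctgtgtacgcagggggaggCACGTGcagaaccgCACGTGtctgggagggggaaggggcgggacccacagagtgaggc
Tef (chr15:81802423-81802672, plus strand): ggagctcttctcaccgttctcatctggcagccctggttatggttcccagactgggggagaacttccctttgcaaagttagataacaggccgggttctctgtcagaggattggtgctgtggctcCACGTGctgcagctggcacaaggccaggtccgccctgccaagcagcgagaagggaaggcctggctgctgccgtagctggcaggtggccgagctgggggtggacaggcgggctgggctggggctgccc
Nr1d1 (chr11:98775378-98775627, minus strand): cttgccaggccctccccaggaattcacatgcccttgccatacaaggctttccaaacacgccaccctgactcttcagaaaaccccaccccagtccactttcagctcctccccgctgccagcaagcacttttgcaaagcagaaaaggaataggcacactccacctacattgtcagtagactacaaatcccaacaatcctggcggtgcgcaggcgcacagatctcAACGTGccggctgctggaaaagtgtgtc
Per3 (chr4:151044666-151044915, minus strand): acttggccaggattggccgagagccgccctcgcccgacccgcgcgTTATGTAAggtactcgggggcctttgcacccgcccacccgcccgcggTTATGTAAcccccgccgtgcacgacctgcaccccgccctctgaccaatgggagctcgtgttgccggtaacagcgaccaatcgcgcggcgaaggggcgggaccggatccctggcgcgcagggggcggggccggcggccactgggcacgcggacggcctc
Arntl, 30 bases with the ROR element (chr7:113207528-113207557, plus strand): ggaaggcagAAAGTAGGTCAgggacggagg
The 3 E-boxes of Ciart begin 116, 58 and 44 bases before its start, that of Tef 127, the E-prime box of Nr1d1 28, and the D-boxes of Per3 205 and 158 bases before. The ROR element of Arntl begins 27 bases after its start. Motifs were chosen after the values were seen and searched on both strands in the 300 bases from 250 before to 50 after each start; the E-box and the E-prime box share 5 letters but no match counts as both. CACGTG was in 5 of the 27 clock genes with a promoter (18.5%) and in 8.09% of all genes with one, CACGTT in 4 (14.8%) and 5.44%, and the D-box and the ROR element in 1 each (3.7%), against 1.11% and 0.459% of all genes. Over all 32851 promoters these shares were 7.15%, 4.68%, 0.938% and 0.384%. Wee1, Upp2, Usp2 and Dbp, which also differed, were not among the genes with a match to any of these motifs. Of the genes shown, Ciart, Tef and Per3 were higher and Nr1d1 and Arntl lower in knockout, so a match did not go with 1 direction. A match is a run of letters and says nothing of binding in these livers.

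Enzymes of fatty acid synthesis were mostly lower on high-fat diet in knockout. Acacb encodes the acetyl-CoA carboxylase whose product holds back fatty acid entry into mitochondria. It had a log2 value of 6.64 on control and 5.19 on high-fat diet in knockout (-1.45) and of 6.82 and 5.34 in wild type (-1.47). Me1, the malic enzyme that supplies NADPH, had 10.50 and 9.40 in knockout (-1.10) and 10.94 and 8.81 in wild type (-2.13). For both genes the 2 high-fat arrays lay below the 2 control arrays. The desaturase gene Scd1 was lower by -0.87 in knockout and -1.57 in wild type, the elongase gene Elovl3 by -0.81 and -1.47, the acetyl-CoA synthetase gene Acss2 by -0.77 and -0.71, and Elovl5 by -0.58 and -1.15. Against this, Thrsp, a nuclear protein gene linked to lipogenesis, was higher, with 10.03 and 10.90 in knockout (0.87) and 9.96 and 10.95 in wild type, and so was Srebf1, which encodes the factor that drives this pathway, by 0.61 and 0.82. Acly and Elovl6, other enzymes of the route, differed little (0.10 and 0.04). Of 22 members kept, 16 were lower and 6 higher in knockout, against 47.7% and 52.2% of all genes. At 1.5-fold 5 were lower and 2 higher, against 1.72% and 2.28% of all genes. The median was -0.33, and -0.32 in wild type, and 20 of 22 had the same sign in both genotypes.

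Cholesterol synthesis genes showed smaller differences of mostly the same sign. Sqle, the squalene epoxidase, had a log2 value of 6.88 on control and 5.93 on high-fat diet in knockout (-0.95) and of 5.90 and 5.13 in wild type (-0.77). Its knockout control array was the highest of the 4, and its knockout high-fat array was level with wild type on control diet. Srebf2, which encodes the factor that drives the pathway, was lower by -0.78 in knockout and -0.20 in wild type, Pmvk by -0.66 and -1.41, and Fdps by -0.57 and -0.63, whereas Sc5d and Insig1 were slightly higher in knockout (0.17 and 0.15). Of the 20 members kept, 16 were lower in knockout, against 47.7% of all genes. At 1.5-fold 3 were lower (1.72% of all genes) and 0 higher (2.28%). The median was -0.19, and -0.25 in wild type. The knockout control array was the highest of the 4 for 11 of the 20, against 2670 of the 13308 genes kept. Genes of triglyceride synthesis lay close to 0, 5 higher and 6 lower, with Dgat2 at 0.26 and Gpd1 at -0.44 as the ends of their range.

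The highest named gene in knockout was Cyp2b9, a cytochrome P450 of the family induced through the drug-sensing receptor CAR and known to be higher in female liver. Its log2 value was 5.28 on control and 8.60 on high-fat diet in knockout, a difference of 3.32, while wild type had 9.05 and 7.61, a difference of -1.44. The knockout control array was the lowest of the 4 and wild type on control diet the highest, so the genotypes went opposite ways. Cyp2b9 and its near-identical relatives may share probes, and the value may mix copies. Cyp2c38 had 8.43 and 9.24 in knockout (0.81) against 10.53 and 7.59 in wild type (-2.94), and Cyp2a5 was higher by 0.65 in knockout and lower by -0.56 in wild type, with the same reserve for shared probes. The gene of CAR itself, Nr1i3, was higher in both genotypes, by 0.62 and 0.57, as was Cyp2c54, by 0.68 and 0.83. Of 34 genes kept on the list of CAR and PXR targets, 24 were higher and 10 lower in knockout with a median of 0.25. Over all genes these shares were 52.2% and 47.7%. At 1.5-fold 7 were higher and 1 lower, against 2.28% and 1.72% of all genes. Members lay between -0.69 and 3.32 in knockout, and all those named above were among the higher ones. In wild type 10 of the 34 were higher and 24 lower with a median of -0.38. The list also holds the receptor genes Nr1i3 and Nr1i2, and several of its P450 genes, Cyp2b9 among them, are on the female-biased list too. For 14 of the 34 the knockout control array was the lowest of the 4, against 2967 of the 13308 genes kept.

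Several genes of organic anion uptake and acyl-CoA metabolism shared this arrangement of the arrays. Slco1a4, which encodes a transporter of bile acids and drugs, had a log2 value of 5.24 on control and 6.47 on high-fat diet in knockout (1.24) and of 6.72 and 6.04 in wild type (-0.67). Acss3, a mitochondrial short-chain acyl-CoA synthetase gene, had 4.39 and 5.90 in knockout (1.52) and 5.73 and 4.95 in wild type (-0.78). Acot3, a peroxisomal acyl-CoA thioesterase gene and PPARalpha target, had 4.36 and 5.58 in knockout (1.21) and 5.92 and 5.33 in wild type (-0.60). In each of these genes the knockout control array was the lowest and the other 3 arrays lay above it. Cd36, the fatty acid translocase gene, had 7.78 and 8.68 in knockout (0.90) and 8.44 and 7.96 in wild type (-0.48), and Abcd2, a peroxisomal transporter gene, was higher by 0.65 in knockout and lower by -1.94 in wild type.

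The PPARalpha targets as a group split in knockout. Fgf21, the fasting and stress hormone of the liver, had a log2 value of 6.32 on control and 5.14 on high-fat diet in knockout (-1.19) and of 7.32 and 5.16 in wild type (-2.16); the high-fat arrays were alike and the control arrays higher. The omega-hydroxylase genes Cyp4a14 and Cyp4a31, which have near-identical relatives, were lower by -0.91 and -0.89 in knockout and by -2.80 and -1.64 in wild type. Higher in knockout were Acot3, Acot4 (0.95), the aldehyde dehydrogenase gene Aldh3a2 (0.61) and Acot2 (0.54). All were lower in wild type, by -0.16 for Acot4, -0.16 for Aldh3a2 and -0.99 for Acot2. A dimmer probe set of Acot4 stood at 0.24 in knockout and 0.02 in wild type. Of 25 members kept, 13 were higher and 12 lower in knockout with a median of 0.01, and 4 were higher and 21 lower in wild type with a median of -0.33. The knockout control array was the lowest of the 4 for 11 of the 25, against 2967 of the 13308 genes kept. Mitochondrial beta-oxidation and ketogenesis genes stayed within a narrower range, with 13 of 22 higher in knockout; Acadm, the medium-chain dehydrogenase gene, stood at 0.39 and the carnitine transporter gene Slc22a5 at -0.60.

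Lepr, the leptin receptor gene, was lower on the high-fat array of either genotype, with a log2 value of 5.18 and 3.88 in knockout (-1.30) and 5.52 and 4.05 in wild type (-1.47). The FGF21 co-receptor gene Klb differed by 0.11 in knockout and -0.65 in wild type, and the adiponectin receptor genes Adipor1 and Adipor2 by 0.01 and 0.26 in knockout. Among genes of insulin and IGF signalling, Irs1 and Irs2, which encode the docking proteins of the insulin receptor, were lower by -0.53 and -0.55 in knockout and by -0.46 and -0.89 in wild type, and the binding protein genes Igfbp1 and Igfbp2 by -0.56 and -0.65 in knockout. In the other direction stood Foxo3 (0.49), which encodes a factor that insulin holds out of the nucleus, while the probe sets of its relative Foxo1 disagreed (0.31 and, for the dimmer one, -0.82). Of the 21 members kept, 11 were higher and 10 lower, with a median of 0.03. Glucose and glycogen genes were likewise balanced, with 12 of 21 higher: the glycogen phosphatase subunit gene Ppp1r3b stood at 0.49, the glucose transporter gene Slc2a2 at 0.46, and Pck1 and G6pc, the enzymes of glucose output, at -0.28 and -0.23.

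**Figure D2:**
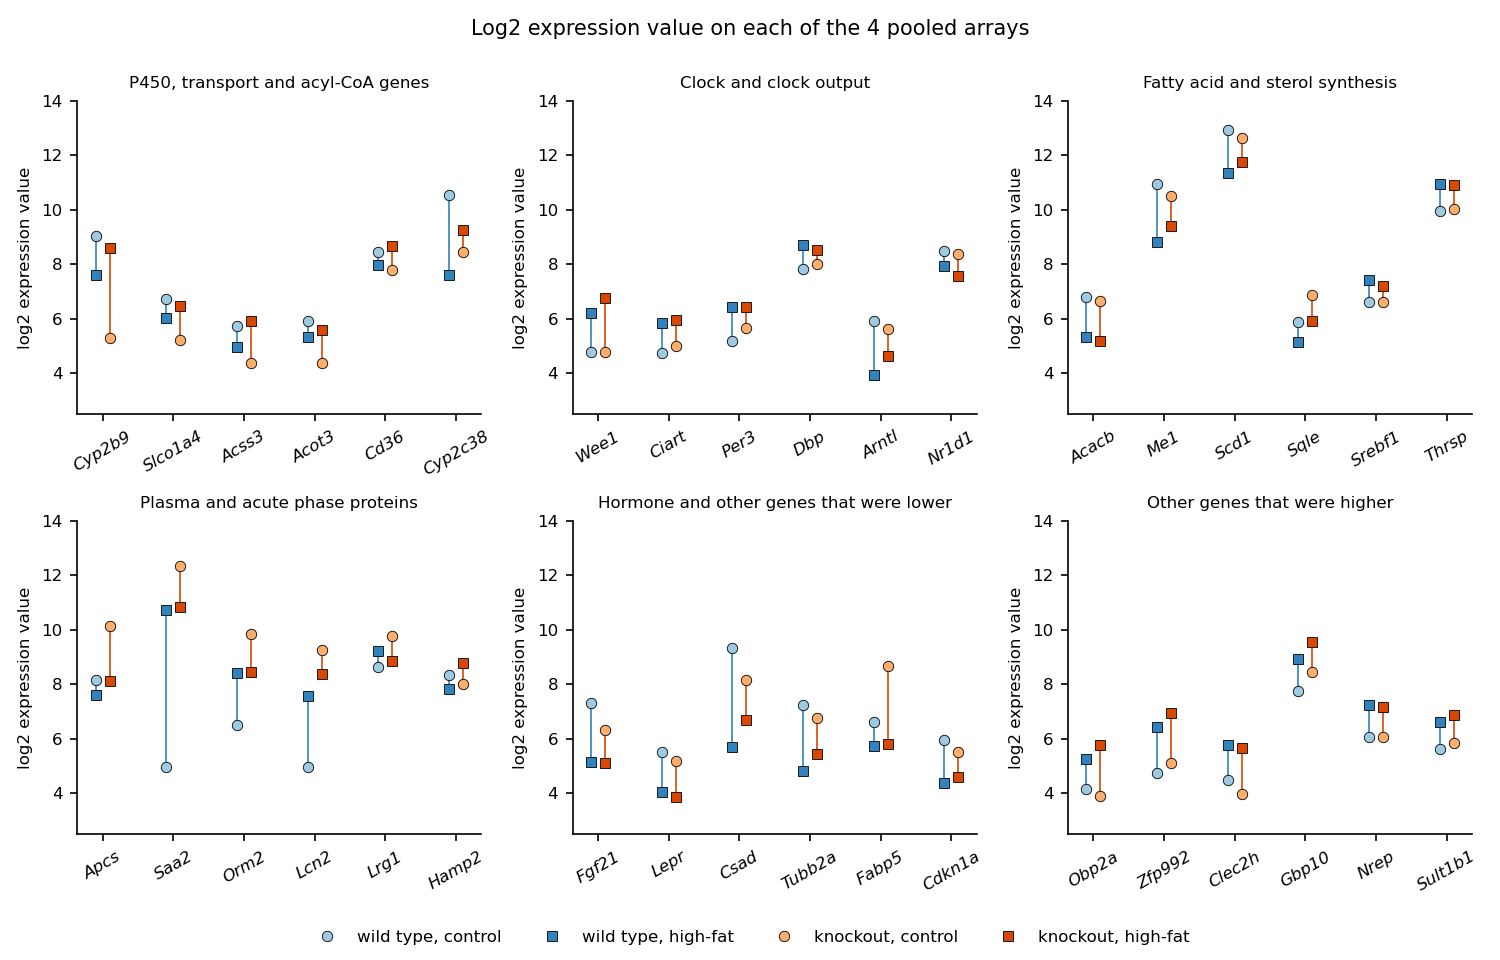
Log2 expression value (vertical axis, arbitrary array units) of 36 genes on each of the 4 pooled arrays, in 6 panels by function; circles are control diet, squares high-fat diet, blue wild type and orange knockout, and lines join the diets of a genotype. Arntl, Acacb, Lepr and Tubb2a are lower and Wee1, Ciart, Zfp992 and Nrep higher on both high-fat arrays, while Cyp2b9, Slco1a4, Acot3, Saa2, Orm2 and Lcn2 go opposite ways in the genotypes.

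In the handling of fatty acids and lipid droplets, the members at the ends of the range were of different kinds. Fabp5, a fatty acid binding protein of skin and macrophages that is low in normal hepatocytes, was the lowest of all named genes in knockout, with a log2 value of 8.67 on control and 5.82 on high-fat diet, a difference of -2.85. Wild type had 6.63 and 5.73, so that the knockout control array stood above the other 3. Its other probe sets differed by -2.98, -2.01 and -1.35 in knockout. Fabp4 was higher by 0.77 and Fabp2 by 0.68 in knockout, while the liver form Fabp1 differed by -0.14. Fitm1, which encodes a protein of lipid droplet formation, was higher by 0.88 in knockout and 0.49 in wild type (a dimmer probe set stood at 0.06 in knockout), and the lipase gene Ces1d by 0.61 and 0.02. The droplet coat genes Plin2 and Plin5 stood at -0.18 and -0.16 in knockout and at -0.60 and -0.83 in wild type. Of 21 droplet and lipase genes kept, 12 were higher in knockout with a median of 0.04.

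Of the bile acid genes, Cyp7a1, the rate-limiting enzyme of their synthesis, had a log2 value of 10.13 on control and 10.88 on high-fat diet in knockout (0.75) and of 9.99 and 10.48 in wild type (0.49), and Akr1d1, a reductase of the same route, was higher by 0.80 and 0.49. Nr0b2 (SHP), which represses Cyp7a1, was lower by -0.40 and -0.54. The remaining members of the route lay between -0.47 (Cyp46a1) and 0.27 (Akr1c6) in knockout, and the median over the 15 kept was 0.01. Csad, which makes hypotaurine on the way to the taurine used for bile acid conjugation, had 8.18 and 6.71 in knockout (-1.46) and 9.32 and 5.71 in wild type (-3.61). Both its high-fat arrays were below both control arrays. The other taurine genes showed smaller values, with Cdo1, the cysteine dioxygenase, at 0.02 and the transporter gene Slc6a6 at -0.08.

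Enzymes of steroid metabolism were mostly higher in knockout. Hsd3b2 was higher by 0.88 in knockout and 0.27 in wild type, and Hsd3b3 by 0.62 and 0.69. The median of the 13 steroid enzyme genes kept was 0.19 in knockout, with 9 higher, against 52.2% of all genes. Sult1b1, a sulphotransferase of thyroid hormones and phenols, was higher by 1.04 and 1.01. The glutathione transferase gene Gstt3 was higher by 0.89 in knockout and 0.01 in wild type, while Gstm3, of a family with near-identical copies, was lower by -0.61 and -2.50. The 29 transferase genes of the glutathione, sulphate and glucuronide classes kept were split, 15 higher and 14 lower, with a median of 0.05 that turned to -0.01 without the filter on dim genes. Liver genes known to be higher in females than in males had no common direction in knockout, with 12 of 21 higher and a median of 0.03, against 2 of 21 higher and a median of -0.60 in wild type. Genes known to be higher in males had 13 of 33 higher and a median of -0.08 in knockout and 26 of 33 higher and a median of 0.27 in wild type. Obp2a, of the lipocalin family, stood at the high end, with 3.92 on control and 5.79 on high-fat diet in knockout (1.87) and 4.16 and 5.28 in wild type (1.12). At the low end was Moxd1, a monooxygenase gene of the same male-biased list, with 9.04 and 7.44 in knockout (-1.60) and 4.03 and 9.24 in wild type (5.20). Wild type on control diet stood far below the other 3 arrays for Moxd1.

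Acute phase genes were mostly lower on high-fat diet in knockout. Apcs, which encodes serum amyloid P, a pentraxin of the mouse acute phase, had a log2 value of 10.16 on control and 8.13 on high-fat diet in knockout, a difference of -2.02, and of 8.16 and 7.62 in wild type (-0.54). The knockout control array stood above the other 3. Saa2, a serum amyloid A gene with near-identical relatives, had 12.34 and 10.83 in knockout (-1.52) and 4.97 and 10.73 in wild type (5.76). Orm2, an orosomucoid gene, had 9.83 and 8.47 in knockout (-1.36) and 6.51 and 8.44 in wild type (1.92). For both, the high-fat arrays of the genotypes were nearly level, the knockout control array was the highest and the wild-type control array the lowest. Lcn2, which encodes the siderophore-binding lipocalin 2, had 9.27 and 8.37 in knockout (-0.90) and 4.97 and 7.56 in wild type, and Lrg1 had 9.78 and 8.85 against 8.66 and 9.24. Mt2, a metallothionein gene, was lower by -0.66 in knockout and higher by 1.56 in wild type. Not all members were lower: Hamp2, a hepcidin gene, was higher by 0.78, Saa4, the constitutive serum amyloid A, by 0.56, and Saa3 by 0.43.

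Of the 29 acute phase genes kept, 22 were lower and 7 higher in knockout, against 47.7% and 52.2% of all genes. At 1.5-fold 6 were lower and 1 higher, against 1.72% and 2.28% of all genes. The median was -0.23 in knockout and 0.24 in wild type, where 21 of 29 were higher. For 22 of the 29 the knockout control array was the highest of the 4 (2670 of all 13308 genes). For 1 of the 29 the knockout high-fat array was the lowest (3543 of all genes). For Lcn2 the knockout high-fat array (8.37) lay above wild type on control (4.97) and high-fat diet (7.56). For Saa2 and Orm2 it lay above wild type on control diet and was nearly level with wild type on high-fat diet. The high-fat values were 10.83 against 10.73 for Saa2 and 8.47 against 8.44 for Orm2. For Apcs the knockout high-fat array was level with wild type on control diet.

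The promoters of Saa2, Orm2 and Lcn2 are shown since members of the C/EBP family are known to drive acute phase genes. The sequences are RefSeq's 250 bases before the start in GRCm38.p6, 5′ to 3′ on the gene's strand, and capitals mark matches to TTNCNCAA, a C/EBP-type motif chosen after the values were seen.
Saa2 (chr7:46751583-46751832, plus strand): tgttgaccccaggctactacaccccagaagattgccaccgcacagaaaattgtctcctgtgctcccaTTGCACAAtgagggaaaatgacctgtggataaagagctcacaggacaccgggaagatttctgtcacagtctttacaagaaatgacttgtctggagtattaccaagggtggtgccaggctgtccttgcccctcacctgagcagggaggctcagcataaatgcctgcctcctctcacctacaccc
Orm2 (chr4:63362199-63362448, plus strand): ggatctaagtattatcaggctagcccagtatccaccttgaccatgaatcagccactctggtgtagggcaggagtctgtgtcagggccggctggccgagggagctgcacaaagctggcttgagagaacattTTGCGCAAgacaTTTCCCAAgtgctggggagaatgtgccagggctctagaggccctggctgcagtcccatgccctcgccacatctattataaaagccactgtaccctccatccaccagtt
Lcn2 (chr2:32387740-32387989, minus strand): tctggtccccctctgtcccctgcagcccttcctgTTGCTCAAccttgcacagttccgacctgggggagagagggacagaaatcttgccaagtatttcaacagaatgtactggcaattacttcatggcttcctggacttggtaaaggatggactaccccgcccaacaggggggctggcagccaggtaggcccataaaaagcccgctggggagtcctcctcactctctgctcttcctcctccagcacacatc
The match begins 183 bases before the start in Saa2, 120 and 108 bases before in Orm2, and 216 bases before in Lcn2. In the same 300-base windows, searched on both strands, TTNCNCAA was found in 10 of the 24 acute phase genes with a promoter (41.7%), against 14.9% of all genes and 13.3% of all 32851 promoters. The 10 were Ahsg, Fga, Fgb, Hpx, Lcn2, Orm2, Orm3, Saa2, Saa4 and Steap4. Their differences in knockout went both ways, from -1.52 for Saa2 to 0.56 for Saa4, so a match did not go with 1 direction.

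Genes of the pathway that Myd88 serves showed no shared shift with diet in knockout. Of 34 genes of Toll-like receptor and NF-kappaB signalling kept, 17 were higher and 17 lower, with a median of 0.00 in each genotype. Tlr5, the receptor for flagellin, was the highest, with a log2 value of 5.68 on control and 6.63 on high-fat diet in knockout (0.94) and of 6.24 and 6.96 in wild type (0.72). Ly96, the partner of TLR4 in sensing endotoxin, differed by 0.44 and 0.16, and the inhibitor gene Nfkbib by -0.35 and 0.00. Of the signals upstream of the acute phase genes, Socs3, the feedback inhibitor of interleukin-6 signalling, was lower by -0.61 in knockout and differed by -0.01 in wild type (a dimmer probe set stood at 0.14 in knockout), and Stat3, its driver, by -0.47 and 0.06. The interleukin-1 receptor genes Il1r1 and Il1rap stood at -0.26 and 0.56 in knockout. The neutrophil chemokine gene Cxcl1 was lower by -0.81 in knockout and higher by 1.83 in wild type, while Cxcl9, induced by interferon-gamma, was higher by 0.75 in knockout and differed by -0.08 in wild type.

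Among genes induced by interferons, 2 guanylate binding protein genes passed 2-fold upward in knockout, as did 0.323% of all genes. Gbp10 had a log2 value of 8.44 on control and 9.56 on high-fat diet in knockout (1.12) and of 7.77 and 8.92 in wild type (1.15), and Gbp11 had 5.99 and 7.12 (1.13) and 5.87 and 7.20 (1.32). On each diet pair the high-fat arrays were higher; these genes have near-identical neighbours and their probes may be shared. Of the 10 interferon-induced GTPase genes kept, 7 were higher, with Gbp8 (-0.33) and Gbp3 (-0.26) among the lower ones and a median of 0.23 in each genotype. Of the 26 other interferon-stimulated genes kept, 15 were lower and 11 higher with a median of -0.08, against 47.7% and 52.2% of all genes. Oas1g stood at -0.75, Irf7 at -0.55 and Isg15 at 0.50. Antigen presentation genes were lower for 11 of 16 in knockout (median -0.15) and higher for 14 of 16 in wild type (median 0.16). The class II genes H2-Ab1 and H2-Aa, which have near-identical copies, stood at -0.32 and -0.29 in knockout and 0.38 and 0.41 in wild type. All 7 antimicrobial protein genes kept were lower in knockout, from -0.90 for Lcn2 to -0.12 for Defb1, with a median of -0.37; without the filter on dim genes the median of the 15 with a probe set was -0.18.

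Markers of the other liver cells, in which Myd88 is kept, were read next. Over all genes kept, 52.2% were higher and 47.7% lower in knockout, and 44.9% and 55% in wild type. Of 21 Kupffer cell and macrophage markers kept, 16 were lower in knockout with a median of -0.11, and 17 were lower in wild type with a median of -0.21. The complement genes C1qa and C1qb, which Kupffer cells make, were lower by -0.64 and -0.37, and the defining markers Clec4f and Cd5l by -0.15 and -0.32, but Vsig4 and Adgre1, which also define these cells, stood at 0.15 and 0.18, and the scavenger receptor gene Marco at 0.39. Endothelial markers were balanced, 11 of 20 higher, with Lyve1 at 0.35 and Stab1 at -0.39. Stellate cell and matrix genes were higher for 16 of 24, with a median of 0.12 that was 0.06 with all probe sets of a gene averaged; Lrat, which stores retinoids in stellate cells, stood at 0.33, and the collagen gene Col1a1 at -0.57. None of these lists had a member past 2-fold in knockout, where 0.323% of all genes were so much higher and 0.286% lower. Complement and coagulation genes, mostly of hepatocytes, were lower for 22 of 36 with a median of -0.06, and the proteases C1s1 and C1ra were lower by -0.64 and -0.52 in knockout, though a second probe set of C1s1 stood at 0.03.

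Genes of liver zones, growth and housekeeping were read by their lists, beside the shares of all genes. These were 52.2% higher and 47.7% lower in knockout, and 44.9% and 55% in wild type. Pericentral genes were higher for 12 of 18 in knockout with a median of 0.12, among them Lect2 (0.48), the glutamate transporter gene Slc1a2 (0.46) and Oat (0.44), while Glul and Axin2, direct targets of Wnt signalling, stood at 0.02 and -0.14. Periportal genes were split 8 and 8. Cytosolic ribosomal protein genes were lower for 23 of 26 in knockout (median -0.19) and for 25 of 26 in wild type (median -0.18), with Rpsa at -0.77 and Rplp0 at -0.55 in knockout. Respiratory chain genes were lower for 21 of 32 with a median of -0.06. Tubb2a, a beta-tubulin gene, had a log2 value of 6.77 on control and 5.46 on high-fat diet in knockout (-1.31) and of 7.24 and 4.84 in wild type (-2.40), and 9 of the 10 tubulin and cytoskeleton genes kept were lower. Of the genes of the unfolded protein and integrated stress responses, 13 were higher and 14 lower, with Asns at -0.44 and Ddit3 at 0.13. The cyclin gene Ccnd1 was lower by -0.74 in knockout and -1.10 in wild type, and proliferation genes showed no common direction, with 11 higher and 13 lower.

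**Figure D3:**
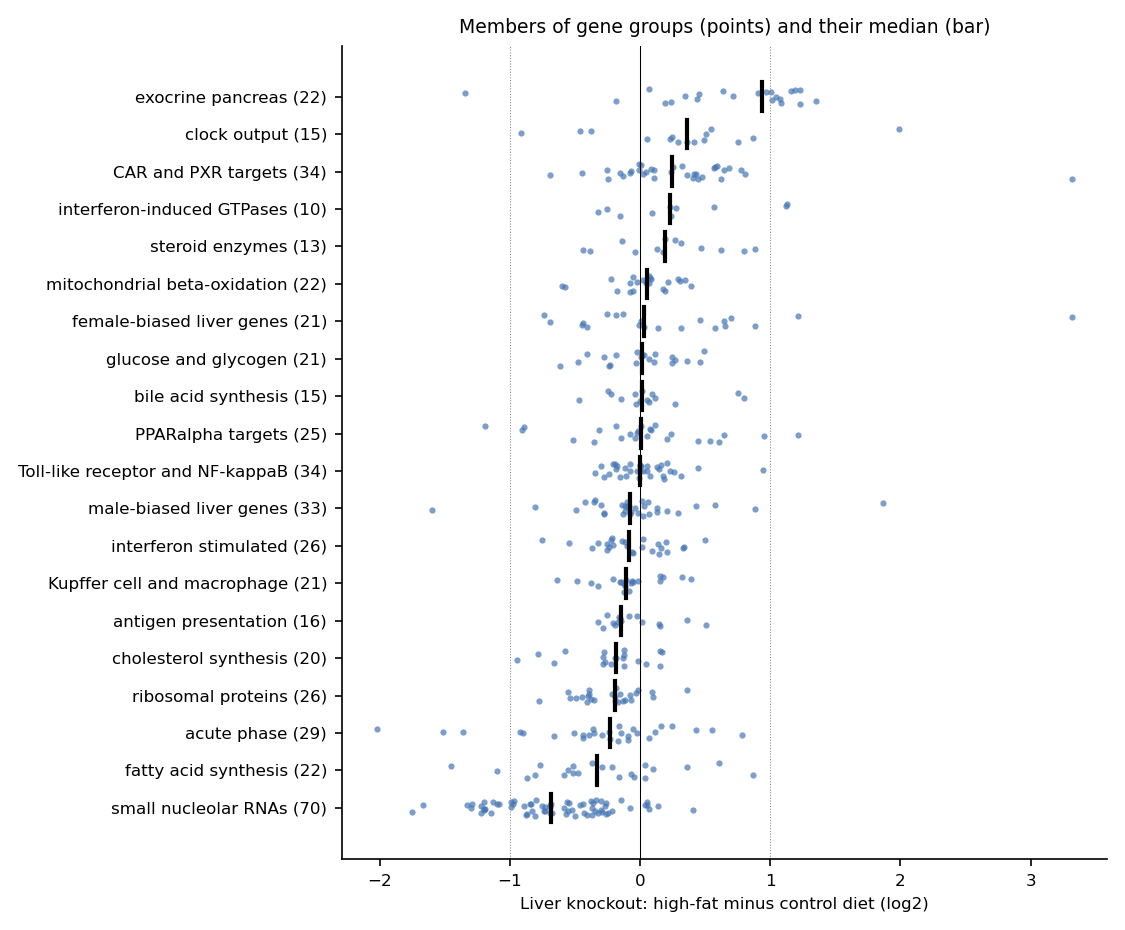
Log2 difference, high-fat minus control diet in liver knockout (horizontal axis), of each member kept of 20 gene groups (points; number kept in brackets), with the group's median as a bar and dotted lines at 2-fold. Exocrine pancreas genes have the highest median (0.94, or 0.52 without the filter on dim genes). Small nucleolar RNAs (Snord, Snora and Scarna names) have the lowest (-0.68). The medians of clock output (0.36), CAR and PXR targets (0.25), acute phase (-0.23) and fatty acid synthesis genes (-0.33) lie between.

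Several genes outside these groups were at least 2-fold higher in knockout. Zfp992, a zinc finger gene with near-identical neighbours, had a log2 value of 5.12 on control and 6.97 on high-fat diet in knockout (1.85) and of 4.75 and 6.43 in wild type (1.68). Clec2h, a C-type lectin gene, had 3.99 and 5.66 in knockout (1.67) and 4.50 and 5.77 in wild type (1.28). In both genes the high-fat arrays lay above the control arrays of either genotype. Map2k6, a kinase gene upstream of p38, was higher by 1.33 in knockout and 0.85 in wild type, Dsg1c, a desmoglein gene, by 1.36 and 0.88, the carbonic anhydrase gene Car1 by 1.10 and 1.32, Nrep by 1.10 and 1.17, and Naaladl2 by 1.05 and 1.10. P2ry1, the receptor gene for ADP, was higher by 1.23 in knockout and 0.35 in wild type. A further set was higher in knockout and nearly level in wild type: Ankrd12 stood at 1.21 and 0.09, Gtpbp10 at 1.08 and 0.00, and Zfp930 at 1.05 and 0.01. For Ankrd12 the log2 value was 4.90 and 4.99 in wild type and 4.68 and 5.89 in knockout, so the knockout high-fat array stood alone. That array also stood apart at the low end for Ptcd3, a mitochondrial ribosome gene, with 7.66 against 8.88, 8.71 and 8.72 on the others, but a second probe set of Ptcd3 stood at 0.55 and disagreed.

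Transcripts of the pancreas were higher on the high-fat array of knockout. Klk1, a kallikrein gene, had a log2 value of 6.92 on control and 8.27 on high-fat diet in knockout (1.35) and of 3.38 and 6.11 in wild type (2.73). The colipase gene Clps had 7.94 and 9.17 in knockout (1.23) and 5.59 and 7.78 in wild type, and the carboxypeptidase gene Cpa1 had 8.57 and 9.76 (1.19) and 6.30 and 8.62. The order of the arrays was alike in these genes, with wild type on control diet the lowest and knockout on high-fat diet the highest. Of the 22 members kept, 20 were higher in knockout, 10 of them at least 2-fold, with a median of 0.94. Over all genes 52.2% were higher and 0.323% at least 2-fold higher. For 20 of the 22 the knockout high-fat array was the highest of the 4, against 4151 of all 13308 genes. In wild type 21 of the 22 were higher with a median of 1.57. Tff2, which the stomach also makes, went the other way (-1.35). Of the 10 gut mucosa genes kept, 4 were higher and 6 lower in knockout. Muc6, the gland mucin gene, had 5.57 and 3.51 in knockout (-2.06) and 3.44 and 3.42 in wild type, so that the knockout control array stood apart. Ly6d was lower by -1.07 and -0.93, and the median of the list was -0.44. Without the filter on dim genes the medians in knockout were -0.07 for gut mucosa and 0.52 for pancreas genes. Skeletal muscle genes had 10 of 14 lower in knockout with a median of -0.03, against 14 of 14 higher and a median of 0.87 in wild type; Neb, the nebulin gene, was higher in both (1.02 and 1.75). The part of these transcripts in the other diet differences was not tested.

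Probe sets of small RNAs made up 21 of the 38 genes at least 2-fold lower, and are grouped here by name, a grouping chosen after the values were seen. Small nucleolar RNAs were taken by the names Snord, Snora and Scarna, the last being Cajal body RNAs. Many of the group guide chemical modification of ribosomal RNA, but not all. Of 70 kept, 64 were lower on high-fat diet in knockout, 37 of them at least 1.5-fold (1.72% of all genes) and 15 at least 2-fold (0.286%). The median of the 70 was -0.68, and -0.21 in wild type, where 49 were lower. Their median log2 level was 7.57 on the control and 6.78 on the high-fat array of knockout, against 7.77 and 7.48 for wild type. The knockout high-fat array was the lowest of the 4 for 58 of the 70, against 3543 of all 13308 genes. Box C/D members, which guide methylation, had a median of -0.83 over 43, and box H/ACA members, which guide pseudouridylation, -0.46 over 23. Snord70 had 8.17 and 6.42 in knockout (-1.75) and 8.28 and 7.04 in wild type (-1.24), and Snord42b had 7.14 and 5.48 (-1.66) and 7.26 and 7.20 (-0.05). Snord42b thus stood apart on the knockout high-fat array, while Snord70 was lower on both high-fat arrays. The Y RNA gene Rny3 was lower by -2.42 and -1.30, and Rny1 by -1.17 and -0.55. Probe sets named for microRNA genes showed less, 92 of 137 lower with a median of -0.15 and 2 at least 2-fold lower. Over all genes 47.7% were lower and 0.286% at least 2-fold lower. The small RNAs named here lie outside the rule for named genes and were picked after their values were seen. Whether the yield of short transcripts differed between the pools was not tested.

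**Figure D4:**
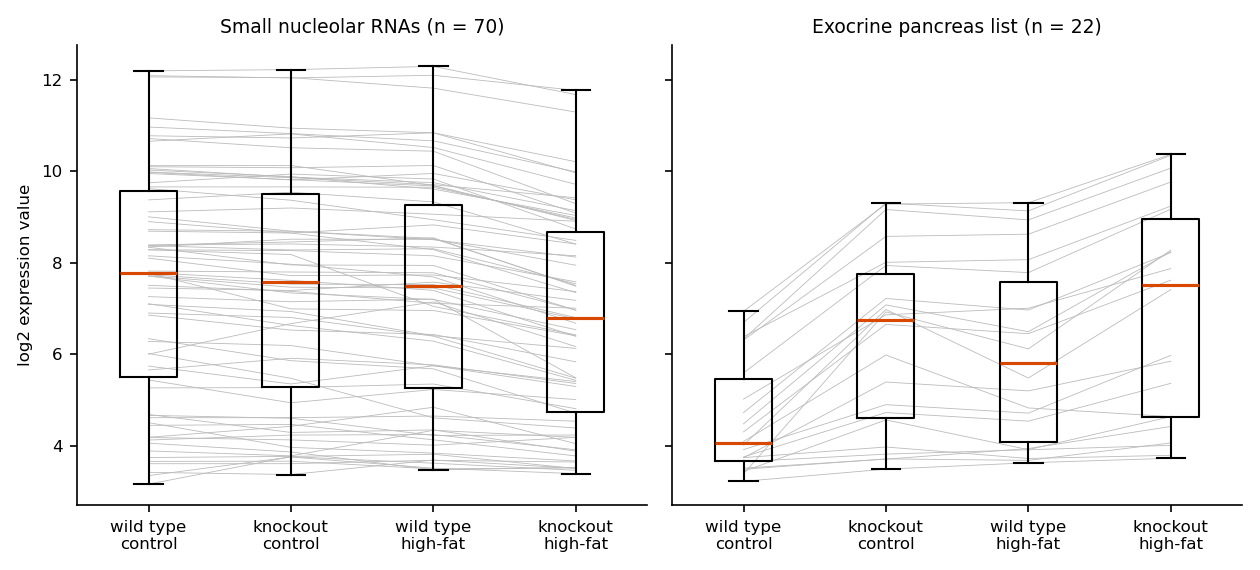
Log2 expression value (vertical axis) on each of the 4 pooled arrays (horizontal axis) for 70 small nucleolar RNAs and for 22 exocrine pancreas genes; grey lines join the values of 1 gene, boxes span the quartiles with the median in orange, and whiskers reach the farthest value within 1.5 times the box. The small nucleolar RNAs (Snord, Snora and Scarna names) have the lowest median on the knockout high-fat array (6.78), and the pancreas genes the highest there (7.51).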

How the data were processed

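Liver RNA of 4 groups was measured on 1 Affymetrix array each, every array holding a pool of 4 to 5 mice per the labels' protocols. The authors deposited log2 expression values per probe set, for which the submitters' processing notes name RMA and Affymetrix Expression Console, with no version. RMA normalises by quantiles, which removes array-wide differences in brightness, and it compresses differences of dim probe sets. Without scanner files or detection calls, the signal of a probe set over its background is unknown.

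Of 41345 probe sets, 23521 had 1 symbol in the platform annotation, 1814 had several and 16010 none, and the last 2 kinds were given no name; 23328 were found by Entrez identifier in the RefSeq gene table and 0 symbols changed. For 1082 of the 22180 genes the probe set with the highest mean was 1 of several. Genes below the 40th percentile of the mean were left out. Families with near-identical copies (Cyp2b, Cyp2c, Cyp4a, Gstm, Saa, Gbp, H2 and Mup genes) may share probes, and their values are uncertain.

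The labels' genotype and diet set the groups. The diet difference was a subtraction of 2 arrays with no test, and genes were counted at 2-fold and 1.5-fold. The 60 gene lists held 1224 distinct genes, of which 958 were kept, and lists were described by counts and medians beside those of all genes. The members and lists were chosen with earlier results of these data known. Named genes were any list member and the 30 highest and 30 lowest genes, leaving out predicted genes, olfactory and vomeronasal receptors and small RNAs, except where the text says otherwise. Alternatives were cyclic loess (limma 3.58.1 in R 4.3.3), median centring, other filters, the mean of a gene's probe sets, and leaving out small RNAs or tissue markers. Python 3.11.15 with pandas 2.3.3, NumPy 2.4.6 and matplotlib 3.10.9 was used, and the counting was tested on simulated data.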

Additional observations from a re-analysis of the deposited data

Results flagged for a closer look

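In 4 genes the diet difference was at least 2-fold in each genotype and of opposite sign. Moxd1 differed by -1.60 in knockout and 5.20 in wild type, Saa2 by -1.52 and 5.76, and Orm2 by -1.36 and 1.92, and Cyp2b9 differed by 3.32 in knockout and -1.44 in wild type. With 1 array per group the difference between the genotypes was not tested. For Moxd1, Saa2 and Orm2 the wild-type control array was the lowest of the 4, and for Cyp2b9 it was the highest.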

How the results depend on the processing

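The count of genes at least 2-fold higher in knockout lay between 32 and 43 under the 7 alternatives, against 43, and that of genes at least 2-fold lower between 17 and 42, against 38. The value of 17 came with small RNA probe sets left out, where 71.7% of the genes past 2-fold were higher against 53.1% as deposited. After cyclic loess the counts were 38 higher and 42 lower (47.5% higher), with 38 higher and 38 lower genes shared with the main counts, and after centring on the median 40 and 42 (48.8% higher). Leaving out pancreas, muscle and gut mucosa markers gave 32 and 35 (47.8% higher). The median over all genes was 0.04 or less from 0 in each setting. With all probe sets of a gene averaged, Fabp5 differed by -2.30, Ptcd3 by -0.26, Tlcd1 by -0.44 and Cd209a by -0.49, and without a filter the median of pancreas genes was 0.52 and that of gut mucosa genes -0.07. The other 410 values for single genes and lists moved by less than 0.28, the SD of the difference over all genes, and 0 genes past 2-fold changed sign; medians of 9 lists near 0, such as bile acid synthesis and Toll-like receptor genes, changed sign between settings. No paired analysis was possible because each group has 1 pooled array. Signal over background and the spread between mice are unknown, and batches of slides or scans were not used.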

Other observations

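Zinc finger genes, grouped by name after their values were seen, were higher in knockout on high-fat diet for 172 of 287 with a median of 0.07, against a median of -0.01 in wild type. At 1.5-fold 15 were higher and 4 lower, and 3 were at least 2-fold higher. Over all genes kept, 52.2% were higher in knockout. At 1.5-fold the shares of all genes were 2.28% higher and 1.72% lower, and at 2-fold 0.323% and 0.286%. Zfp992, Zfp982 and Zfp930 had differences of 1.85, 1.14 and 1.05 in knockout and 1.68, -0.31 and 0.01 in wild type. Predicted genes, also grouped by name after their values were seen, were split, with 420 of 864 higher and 442 lower and a median of -0.01. Of these, 8 were at least 2-fold higher and 1 lower, and 30 and 16 at 1.5-fold, to be read beside the same shares of all genes. By level, 9 genes were at least 2-fold higher and 4 lower among 6667 with a mean log2 value under 5, 29 and 20 among 4755 between 5 and 8, and 5 and 14 among 1886 above 8.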
